A study of Mus musculus with 38 samples.

Results

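A set of 10 genes that NF-κB transcription factors are classically known to switch on were followed through the histone-mark maps of mouse embryonic stem cells (mESCs) with and without IκBα, the protein that holds NF-κB back. The genes, Tnfaip3, Tnip1, Birc3, Traf1, Icam1, Cd40, Cxcl1, Ccl2, Tnf and Il6, were chosen by name from textbook knowledge, out of 21938 protein-coding genes in the annotation. Earlier results of these data were known when the genes were chosen. Each was read over its gene body plus 5 kb on each side (GRCm38, GENCODE vM21), which is called the gene window here. The question was if loss of the inhibitor leaves active marks on the genes that NF-κB activates.

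In resting cells IκBα, encoded by Nfkbia, binds NF-κB dimers such as p50/RelA and keeps them in the cytoplasm. An inflammatory signal activates IκB kinase, IκBα is degraded, and the freed dimers bind κB sites in the promoters and enhancers of their target genes. These targets include cytokines and chemokines, adhesion molecules, survival factors, and inhibitors that end the response, IκBα itself among them. On active genes H3K4me3 marks the start site, H3K27ac marks active promoters and enhancers, and H3K4me1 marks enhancers whether active or primed. H3K27me3 is the mark of Polycomb silencing and H3K9me3 that of heterochromatin.

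The cells were ES-E14TG2a, a mouse embryonic stem cell line, grown in serum with leukemia inhibitory factor and taken at 0 h, before any differentiation. IκBα-KO clones (genotype IkappBalpha-/-) had been made with CRISPR/Cas9 and a pair of guides against the first exon of Nfkbia, and the IκBα-WT controls (IkappBalpha+/+) were clones given scrambled guides. Each of 5 marks was profiled by chromatin immunoprecipitation and sequencing (ChIP-seq) in 3 WT and 3 KO samples, 30 libraries in all, so that a clone's own history is part of its genotype group. The H3K27ac and H3K4me1 labels name the same antibody, ab8895, whereas the study's methods give that one for H3K4me1 and another for H3K27ac, so the H3K27ac label may be in error. The 2 marks share an input.

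In all, 10 κB matches, which overlap into 5 runs of sequence, were found in the promoters of 4 of these genes, and the runs are shown because they place the marks relative to the sequence NF-κB reads. RefSeq promoters (GRCm38.p6, 250 bases before to 50 after a start) were held for 8 genes, 9 promoters in all, with no entry for Ccl2 or Cd40. The κB consensus (10 letters, the NF-κB motif with its purine and pyrimidine positions, either strand) occurred in the promoters of Cxcl1, Il6, Tnfaip3 and Tnip1, against 8.46% of all 32851 promoters. Each line below gives 30 bases, 5′ to 3′ along the gene, with the matched run in capitals.
Cxcl1, chr5:90891165-90891194, plus strand: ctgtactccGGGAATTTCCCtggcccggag
Il6, chr5:30013060-30013089, plus strand: tatcaaatgtGGGATTTTCCcatgagtctc
Tnfaip3, chr10:19015516-19015545, minus strand: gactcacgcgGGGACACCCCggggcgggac
Tnfaip3, chr10:19015403-19015432, minus strand: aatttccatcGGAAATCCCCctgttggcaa
Tnip1, chr11:54962978-54963007, minus strand: tccatcatgGGGGAATTCCCCtcctgcctc
The matched run began 71 bases before the RefSeq start in Cxcl1, 44 in Il6, 125 and 12 in Tnfaip3 and 58 in Tnip1. The promoters of Birc3, Icam1, Tnf and Traf1 held no match in this window.

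H3K4me1 calls lay over all 5 runs in 3 of 3 WT and 3 of 3 KO libraries. H3K27ac lay over the Tnip1 run in all 6 libraries, over both Tnfaip3 runs in 3 WT and 1 KO library, and over the Cxcl1 and Il6 runs in none. H3K27me3 covered the Cxcl1 run in all 6 libraries and the Tnfaip3 runs in 1 WT and 3 KO libraries. H3K4me3 covered the Tnfaip3 run nearer to the start in 3 WT and 2 KO libraries and the Cxcl1 run in 1 WT and 2 KO libraries, and it covered the other 3 in none.

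The targeted gene was looked at first. At Nfkbia the strongest H3K4me3 fold enrichment was 13.1, 10.3 and 13.8 in WT and 3.71, 5.21 and 5.02 in KO. Every KO library thus lay below every WT library, as for 13.1% of the 13533 genes called in all 6 libraries. H3K27ac covered the whole Nfkbia window in all 6 libraries. Across libraries the lists held 21836 to 26806 H3K4me3 peaks over 17.2 to 22.1 Mb and 44977 to 57645 H3K27ac calls over 380 to 419 Mb, with 22943091 to 28339766 ChIP reads in H3K27ac calls. KO covered more sequence than WT for H3K27ac (411 to 419 against 380 to 393 Mb) and H3K27me3 (267 to 278 against 214 to 259 Mb), and less for H3K4me1 (476 to 483 against 486 to 488 Mb) and H3K9me3 (172 to 186 against 202 to 207 Mb), and these totals move with the counts below. All 8 stem cell markers examined, Nanog and Pou5f1 among them, carried H3K4me3 and H3K27ac in all 6 libraries. Of all genes, 63.5% had H3K4me3 in 3 of 3 WT libraries and 63.2% in 3 of 3 KO libraries. No library had an H3K4me3 call at 6 of 7 macrophage markers and 4 of 7 fibroblast markers (30.9% of all genes had none). Each of the 5 endothelial markers had an H3K4me3 call in some library, with a covered share higher in KO at 1 and lower at 4. H3K27ac was broader, with calls in 3 of 3 WT libraries at 5 of the 7 macrophage markers (70.1% of all genes) and in 3 of 3 KO libraries at 3 of them (67.8%). Among these markers 2 had a call in 3 of 3 KO and 0 of 3 WT libraries. The endothelial Cdh5 had it for H3K27ac (2800, 8000 and 10200 bp in KO, background 0.132%). The stem cell marker Zfp42 had it for H3K9me3 (8600, 9200 and 9400 bp in KO, background 0.346%).

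The same 5 of the 10 genes carried H3K4me3 in every library of both genotypes (Tnfaip3, Tnip1, Birc3, Icam1 and the Tnf window), against 63.5% of all genes in WT and 63.2% in KO. Ccl2, Cd40 and Il6 had none in any library (30.9%). H3K27ac was called in 3 of 3 WT libraries for 7 genes (background 70.1%) and in 3 of 3 KO libraries for 4 (67.8%). H3K4me1 was called in every library of both genotypes for 9 genes (77.2% in WT and 76.6% in KO), all but Ccl2. H3K27me3 was called in 3 of 3 WT libraries for 6 genes (47.6%) and in 3 of 3 KO libraries for 7 (47.5%), and H3K9me3 in 3 of 3 WT libraries for Cd40 alone (34.9%) and in 3 of 3 KO libraries for none (30.2%). No library had H3K27ac at Cxcl1 or Ccl2 (background for no call at all 24.3%), H3K4me1 at Ccl2 (20.0%) or H3K27me3 at Birc3 (38.8%), and 8 of the 10 genes had no H3K9me3 call (44.8%).

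**Figure D1:**
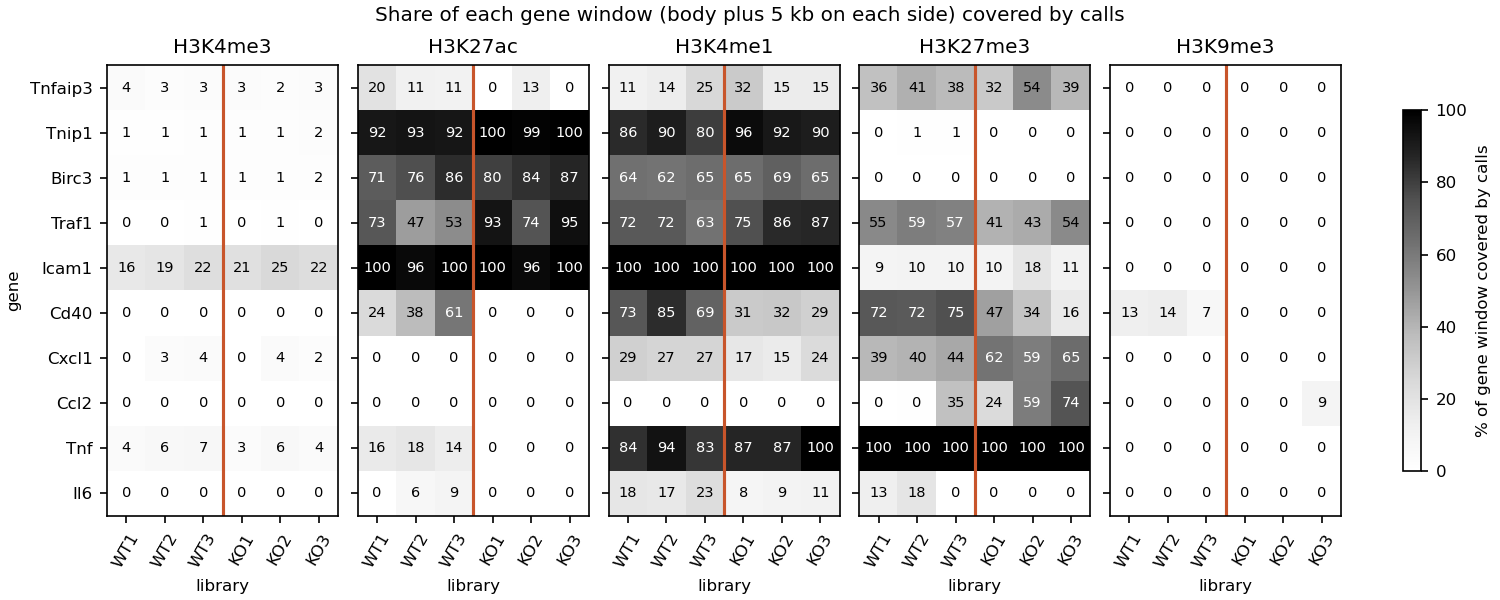
Percentage of each gene window covered by calls, for the 10 genes (rows) in the 30 libraries (columns, WT left and KO right of the orange line), one panel per mark. Icam1, Tnip1, Birc3 and Traf1 are dark for H3K27ac in both genotypes, Tnf is fully covered by H3K27me3 in all 6 libraries, and Cd40 is lighter in KO for 4 marks.

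No gene of the set gained a mark, in the sense of a call in 3 of 3 KO and 0 of 3 WT libraries, for any of the 5 marks (background 0.1% for H3K4me1 to 0.447% for H3K27me3, with 0.273% for H3K4me3, 0.132% for H3K27ac and 0.346% for H3K9me3). Losses, a call in 3 of 3 WT and 0 of 3 KO libraries, were 2 for H3K27ac, at Cd40 and in the Tnf window (background 1.01%), and 1 for H3K9me3, at Cd40 (1.19%). There were none for H3K4me3 (0.251%), H3K4me1 (0.287%) or H3K27me3 (0.675%). Without Cd40, whose surroundings had another input level in KO, 1 loss remained, the H3K27ac of the Tnf window.

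Covered sequence separated the genotypes for 4 genes in H3K27ac. It was higher in every KO than in every WT library for Tnip1 and Traf1 (background 16.4%) and lower for Cd40 and Tnf (6.2%). In H3K4me1 it was higher for Traf1 (9.35%) and lower for Cd40, Cxcl1 and Il6 (12.3%), and in H3K27me3 it was higher for Cxcl1 (6.68%) and lower for Cd40 and Traf1 (4.66%). In H3K9me3 it was lower for Cd40 (6.29%) and higher for none (2.63%), and in H3K4me3 the groups overlapped for all 10 genes (16.9% of all genes were higher and 5.01% lower). With 3 against 3 libraries, an exact permutation test has 20 assignments and cannot go below p = 0.1, which is the two-sided value of every gene whose groups did not overlap.

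ChIP reads per kb of window were compared for the genes called in all 6 libraries. In H3K27ac 2 of 4, Tnip1 and Traf1, were higher in every KO library (background 26.6%) and none was lower (9.18%). In H3K4me1 Traf1 was higher of 9 (18.1%) and 4, Birc3, Cd40, Cxcl1 and Il6, were lower (30.8%). In H3K27me3 Cxcl1 and Icam1 were higher of 6 (21.0%) and Cd40 and Traf1 lower (12.2%), and in H3K9me3 no gene of the set was called in all 6 libraries (7.21% higher and 14.7% lower among the 6130 that were).

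Where a region was called in all 6 libraries, its read density was also compared with edgeR. For H3K27ac 4 genes had such a region, and 2 of them, Tnip1 and Icam1, were higher in KO (8.19% of 24039 regions were called higher and 4.56% lower, 12.8% in all). Both are long regions, and the share called among regions as long was not computed. Among 4054 H3K27ac regions of like length in all libraries, fitted without the length offset, 26.4% were called higher and 26.5% lower. Over all 24039 regions the main fit called 1968 higher and 1097 lower, against 721 and 4459 under a scaling by raw reads. That scaling moved the median of all regions from -0.01 to -0.13 on the log2 scale. The same scaling turned 1784 higher and 732 lower into 3327 and 347 for H3K4me1, and 319 and 195 into 128 and 482 for H3K27me3. For H3K4me1 9 genes had one, with Traf1 higher (4.0% of 44625) and Cd40 lower (1.64%, and 5.64% in all). For H3K27me3 none of 7 was called by edgeR's quasi-likelihood test (1.7% of 18809 higher, 1.04% lower and 2.73% in all) or by DESeq2, and 3 of the 7, Icam1, Cxcl1 and Cd40, had an unadjusted edgeR p under 0.05, as did 2723 of all 18809 regions. The H3K27me3 region tested for Tnip1 lies mostly outside its window, which it reached in WT libraries 2 and 3 only, over 416 and 616 bp. No gene of the set had an H3K9me3 region called in all 6 libraries.

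**Figure D2:**
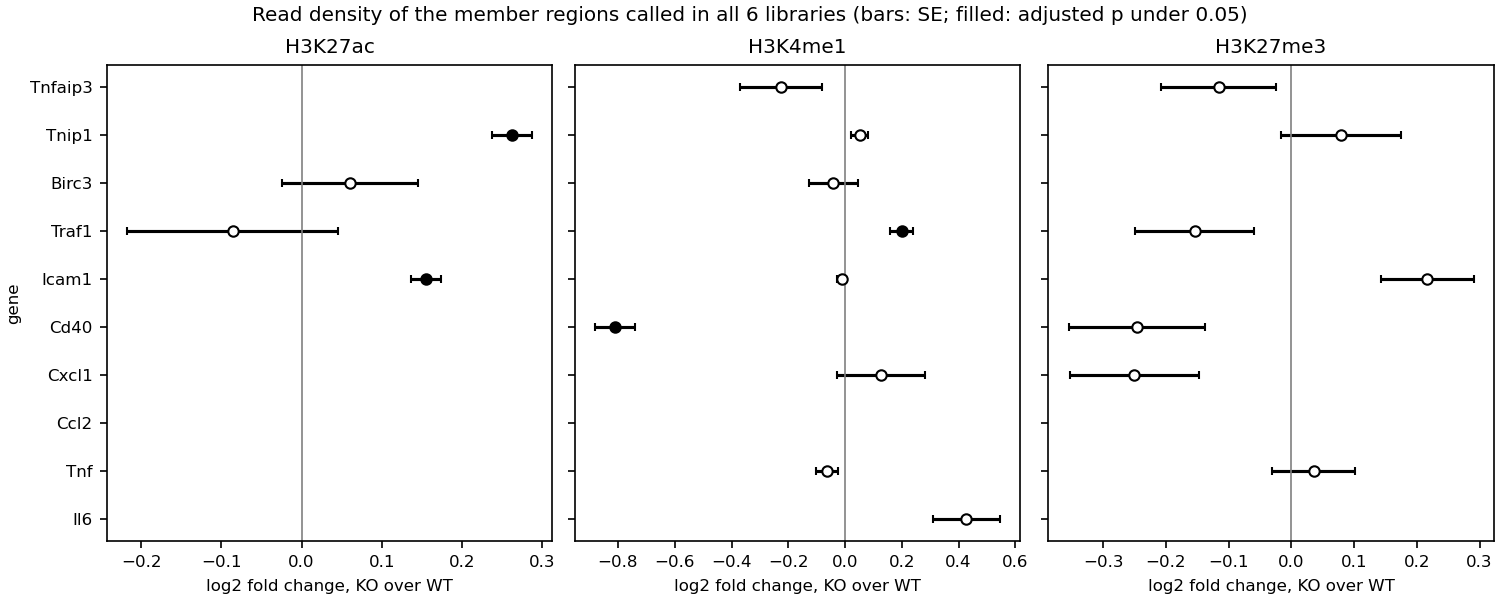
log2 fold change in read density, KO over WT, of the region of each gene called in all 6 libraries, with its standard error, for 3 marks. Filled points passed an adjusted p of 0.05 (edgeR quasi-likelihood test, Benjamini-Hochberg) and open points did not. Tnip1 and Icam1 are to the right for H3K27ac, Traf1 to the right and Cd40 to the left for H3K4me1. The H3K27me3 region shown for Tnip1 lies mostly outside its window.

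The first pair of genes are feedback inhibitors of the pathway. Tnfaip3 encodes A20, a ubiquitin-editing enzyme that shuts off signalling upstream of IκB kinase, and Tnip1 encodes ABIN-1, an A20-binding partner. Tnfaip3 (ENSMUSG00000019850, chr10:19000910-19015657, minus strand) carried an H3K4me3 peak over the start of its transcribed sequence, 129 to 1072 bp from the annotated 5′ end. The strongest fold enrichment of that peak over background was 12.2, 13.5 and 14.3 in WT, mean 13.3 ± 1.06 (SD, n = 3), and 10.7, 11.0 and 8.29 in KO, mean 9.98 ± 1.47. The groups did not overlap and KO was 0.749 times WT. Of the 5 genes with H3K4me3 in all 6 libraries, Tnfaip3 and Tnip1 were lower in every KO library (background 13.1% of 13533 genes) and none was higher (20.4%).

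H3K27ac over the Tnfaip3 promoter covered 5000, 2800 and 2600 bp in WT and 0, 3200 and 0 bp in KO. All 3 WT libraries thus had a call and 2 KO libraries had none, while KO library 2 lay between the WT values. Input in these calls was 29.8, 28.9 and 29.6 reads per kb in WT and 23.4 in KO library 2. Within 50 kb of the middle of the gene the KO input was 0.838 times WT for H3K4me1, which shares its input with H3K27ac. For H3K27me3, which has another input, it was 1.04. The part of the input in the difference was not tested. H3K27me3 around the start covered 8857, 10257 and 9457 bp in WT and 7857, 13257 and 9657 bp in KO, and a call lay over the annotated start itself in 1 WT and 3 KO libraries. The covered lengths overlapped between the genotypes for H3K27me3 and for H3K4me1, which covered 2800 to 6200 bp in WT and 3600 to 7800 bp in KO.

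Tnip1 (ENSMUSG00000020400, chr11:54910785-54962917, minus strand) stood inside an H3K27ac region of 91800 bp, merged from the calls of all 6 libraries. This region also held Gpx3, a glutathione peroxidase gene. Single libraries were more broken up, with 3, 5 and 2 calls in the Tnip1 window in WT and 1, 2 and 1 in KO. The merged region's normalised density was 69.4, 67.2 and 68.9 reads per kb of called sequence in WT and 81.5, 81.0 and 84.1 in KO. The lowest KO library lay above the highest WT library, and the difference was 0.26 ± 0.02 (SE) on the log2 scale, with an adjusted p of 2.63e-05 in edgeR's quasi-likelihood test. Calls covered 57133, 57533 and 57317 bp of the window in WT and 62133, 61333 and 62133 bp in KO, where 62133 bp is the whole window.

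The H3K4me3 of Tnip1 went the other way. Its peak lay 6450 to 7417 bp into the gene, over an untranslated exon, and not at the annotated 5′ end with the κB match. Its strongest fold enrichment was 11.3, 8.67 and 15.0 in WT and 6.09, 8.18 and 6.16 in KO. Every KO library was below every WT library, at 0.583 times the WT mean, in the gene where H3K27ac density was higher.

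The second pair act in survival signalling at the tumour necrosis factor receptors. Birc3 encodes the ubiquitin ligase cIAP2, and Traf1 an adaptor that binds it. Birc3 (ENSMUSG00000032000, chr9:7848699-7873186, minus strand) had a narrow H3K4me3 peak at its start, 487, 505 and 410 bp in WT and 511, 488 and 602 bp in KO. H3K27ac covered 24488, 26088 and 29488 bp in WT and 27488, 29088 and 30088 bp in KO. Both sets of values overlapped, the tested H3K27ac region differed by 0.06 ± 0.09 (SE) on the log2 scale (adjusted p = 0.718, edgeR quasi-likelihood test), and no library had H3K27me3 or H3K9me3 there.

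Traf1 (ENSMUSG00000026875, chr2:34941750-34961772, minus strand) had more sequence called for H3K27ac in KO. Calls covered 21823, 14223 and 16023 bp in WT and 27823, 22223 and 28423 bp in KO. Every KO library was above every WT library, and ChIP reads per kb of window were 39.9, 31.8 and 33.0 in WT against 60.5, 53.4 and 52.4 in KO, 1.59 times as many. The region around the start covered 9600, 2800 and 4000 bp in WT and 15800, 10600 and 15200 bp in KO, with a call over the start itself in 1 WT and 2 KO libraries.

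Within the called part the density did not separate. Per kb of called sequence the ChIP reads numbered 54.9, 67.0 and 61.9 in WT and 65.3, 72.1 and 55.4 in KO at Traf1, and the region fit gave -0.09 ± 0.13 (SE) on the log2 scale (adjusted p = 0.74, edgeR quasi-likelihood test), with the shortest library's length 0.177 of the longest. H3K4me1 in the 3′ part of Traf1, a 13600 bp region, was denser in KO, at 111, 111 and 111 normalised reads per kb in WT and 125, 131 and 126 in KO. That difference was 0.20 ± 0.04 (SE) on the log2 scale called by edgeR's quasi-likelihood test (adjusted p = 0.0093) but not without KO replicate 2 (adjusted p = 0.0502). H3K27me3 over Traf1 covered less in KO, 12200, 12972 and 16200 bp against 16400, 17600 and 17200 bp in WT, and calls of 2200 to 3800 bp lying between 11772 and 16371 bp into the gene were made in 3 WT libraries and 1 KO library.

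H3K4me3 at Traf1 was called in 1 WT and 1 KO library, at different places, and with widths of 329 and 231 bp. The input around Traf1 was 1.01 times the WT level in KO for H3K27ac.

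**Figure D3:**
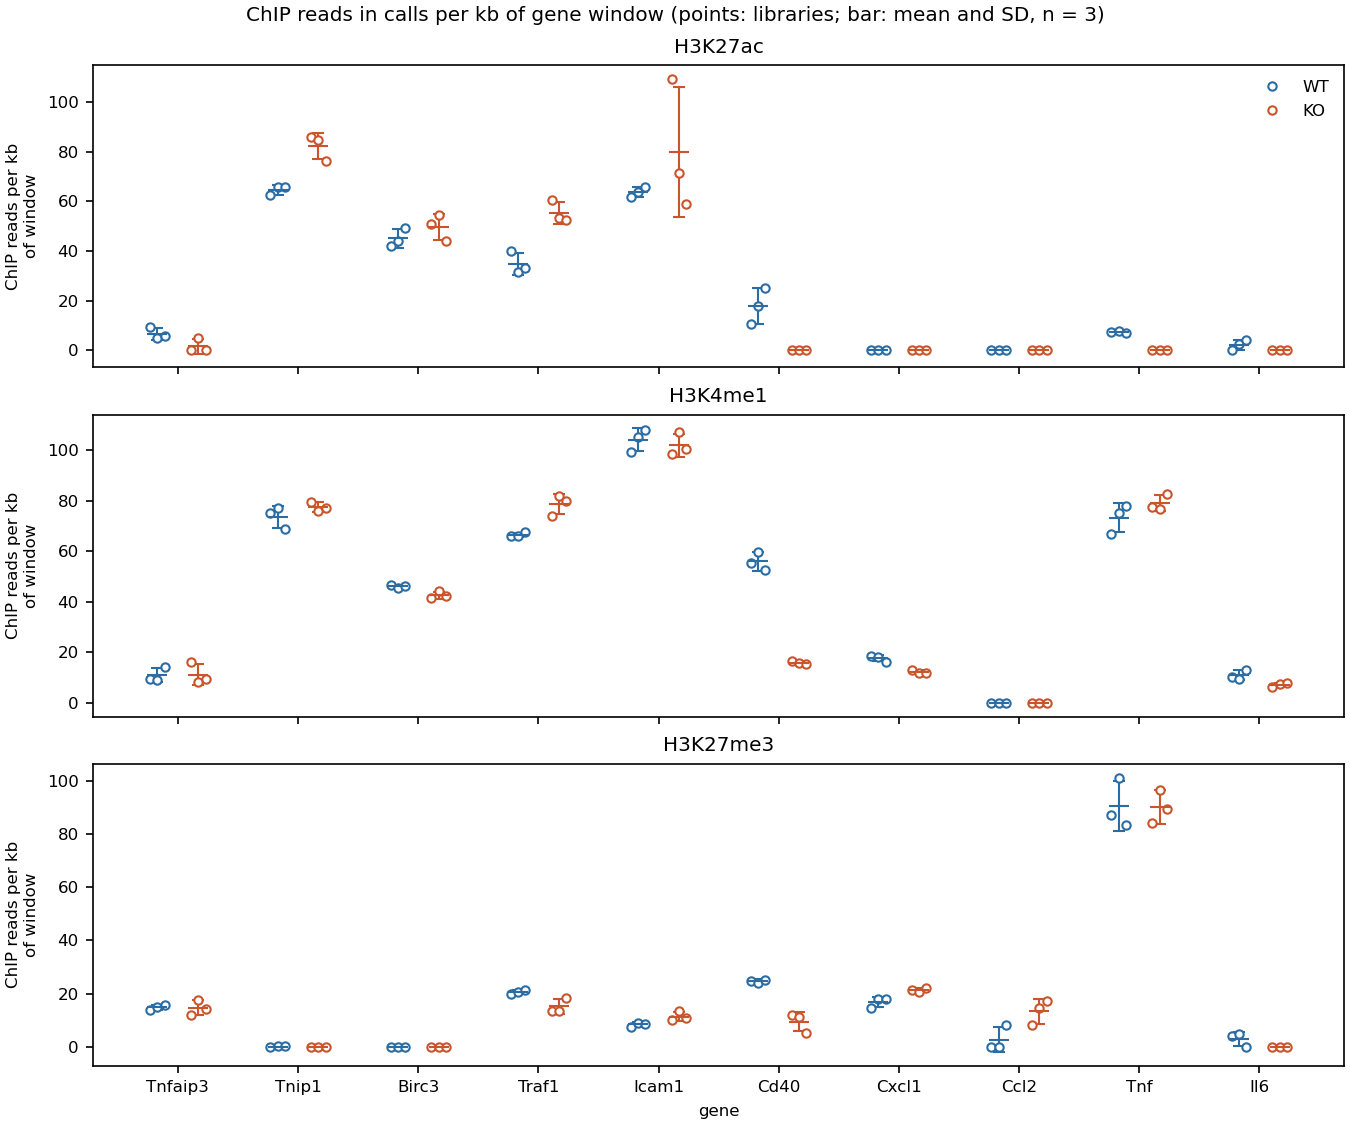
ChIP reads in calls per kb of gene window for 3 marks. Open circles are libraries, the bars are the mean and SD of 3, blue is WT and orange KO, and 0 means no call in the window. Traf1 and Tnip1 are separated upwards in KO for H3K27ac, Cd40 downwards for all 3 marks, and Tnf has the highest H3K27me3 in both genotypes.

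Icam1 encodes the endothelial and immune-cell adhesion molecule that binds leukocyte integrins, and it led the set in H3K4me3 and H3K4me1 coverage in both genotypes. Its window (ENSMUSG00000037405, chr9:21015985-21028817, plus strand) also holds Icam4 and the start of Icam5. H3K4me3 covered 3749, 4267 and 5026 bp in WT and 4837, 5699 and 5089 bp in KO, and the peak over the Icam1 start itself covered 1472, 1693 and 2391 bp against 2136, 2589 and 2678 bp. The rest lay on the Icam5 side, apart from calls near Icam4 in WT library 3 and KO libraries 1 and 2, and the groups overlapped on both measures. Over the whole window the strongest fold enrichment was 9.53, 12.5 and 13.0 in WT and 13.9, 11.6 and 10.4 in KO, and the groups overlapped. Among the calls that reach the Icam1 promoter (5000 bp before to 100 bp after the start) it was 7.61, 6.47 and 5.82 in WT and 10.6, 11.6 and 7.78 in KO, 1.51 times as high and without overlap. The share of all genes apart on this promoter measure was not computed. The promoter calls were not alike in extent, since they ran on past 900 bp from the start in WT library 1 and KO libraries 2 and 3 and were split before that in the others.

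H3K27ac covered 22033 to 22833 bp of the 22833 bp Icam1 window in every library, and H3K4me1 covered all of it. The H3K27ac region that holds Icam1, merged over the 6 libraries, was 139800 bp long. Its normalised density was 84.8, 85.7 and 84.4 reads per kb in WT and 93.9, 95.3 and 94.7 in KO. The difference of 0.16 ± 0.02 (SE) on the log2 scale passed the test (adjusted p = 0.000149, edgeR quasi-likelihood test) but belongs to the merged region. Under a scaling by raw reads it was 0.03 (adjusted p = 0.334, edgeR quasi-likelihood test). Counted over the Icam1 window, ChIP reads per kb were 62.0, 63.7 and 65.9 in WT and 109, 71.3 and 58.8 in KO, and KO library 3 lay below all WT libraries. These values are not local to the window, since a call's reads were spread evenly over it and the calls ran past the window. In KO library 1 the call was 78000 bp long, so its 109 is the mean of that call. H3K27me3 covered 2017 to 4217 bp of the window, at the Icam5 end in all 6 libraries and also near Icam4 in KO library 2.

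Cd40 encodes the receptor by which T cells activate B cells and macrophages, and NF-κB acts both upstream and downstream of it. At Cd40 (ENSMUSG00000017652, chr2:165055627-165072948, plus strand) the calls of 4 marks covered less in KO, and the input there was lower too. H3K27ac covered 6548, 10348 and 16748 bp in WT and 0 bp in each KO library. H3K4me1 covered 19922, 23322 and 18748 bp in WT and 8600, 8800 and 7800 bp in KO, and H3K27me3 covered 19748, 19548 and 20522 bp in WT and 12748, 9348 and 4348 bp in KO. H3K9me3, upstream of the start, covered 3574, 3774 and 1800 bp in WT and 0 bp in KO. The genotypes were apart for all 4.

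Inside the H3K4me1 calls at Cd40 the input held 30.9, 29.9 and 30.6 reads per kb in the WT lists and 14.7, 14.3 and 14.7 in the KO lists. Inside the H3K27me3 calls it held 18.2, 18.3 and 18.3 in WT and 11.2, 12.0 and 11.7 in KO. Within 50 kb of the middle of the gene, and set to 1 at the autosomal median, the KO input was 0.493 times WT for H3K27ac, 0.565 for H3K4me1 and 0.55 for H3K27me3. Of all autosomal genes 0.167%, 0.6% and 0.487% were as far from 1, and the input for the other 9 genes lay between 0.838 and 1.11 where enough sequence was called for these 3 marks. Input is 1 sample per genotype and mark, H3K27ac and H3K4me1 share theirs, and it was read only inside calls.

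The low stretch was short. In 50 kb bins of H3K4me1 calls the KO input was 0.547 times WT at 100 to 50 kb before the Cd40 start, 0.53 in the bin that begins at the start, 0.548 at 50 to 100 kb after it, and 1.43 at 150 to 200 kb after it. From there on it stayed above 1, so that the whole 1 Mb bin that holds Cd40 had a KO input higher by 0.40 on the log2 scale. The marks of Cd40 and its input thus moved together, and their parts in the difference cannot be told apart with 1 input per genotype.

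**Figure D4:**
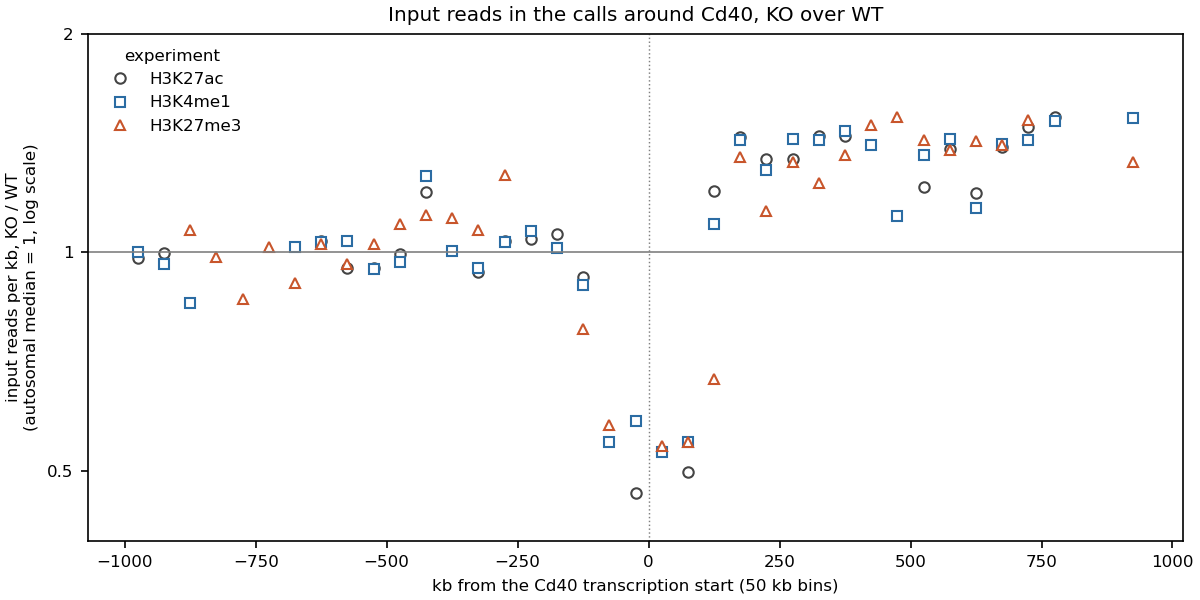
Input reads per kb of called sequence, KO divided by WT, in 50 kb bins around the Cd40 start for the lists of 3 marks, on a log axis with the autosomal median set to 1. The bins around the start lie near 0.5 and those beyond 150 kb downstream near 1.4.

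ChIP over input at Cd40 could be read only in the sequence that each library called. At the peak caller's own scale it was 2.24, 2.13 and 2.28 in the WT H3K4me1 calls and 3.22, 3.13 and 3.42 in the KO calls. The KO calls cover less sequence, and what was called only in WT is not part of the KO ratio. These ratios are therefore not over the same sequence and do not compare the strength of the mark. The ChIP reads alone gave a lower density in KO. The region 12574 to 26573 bp from the start had 89.3, 81.7 and 87.9 normalised reads per kb in WT and 50.3, 48.3 and 49.0 in KO, a difference of -0.81 ± 0.07 (SE) on the log2 scale which edgeR's quasi-likelihood test called (adjusted p = 3.83e-06). At the Cd40 start H3K4me1 was called in all 6 libraries, and H3K27me3 there in 2 WT libraries and no KO library.

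**Figure D5:**
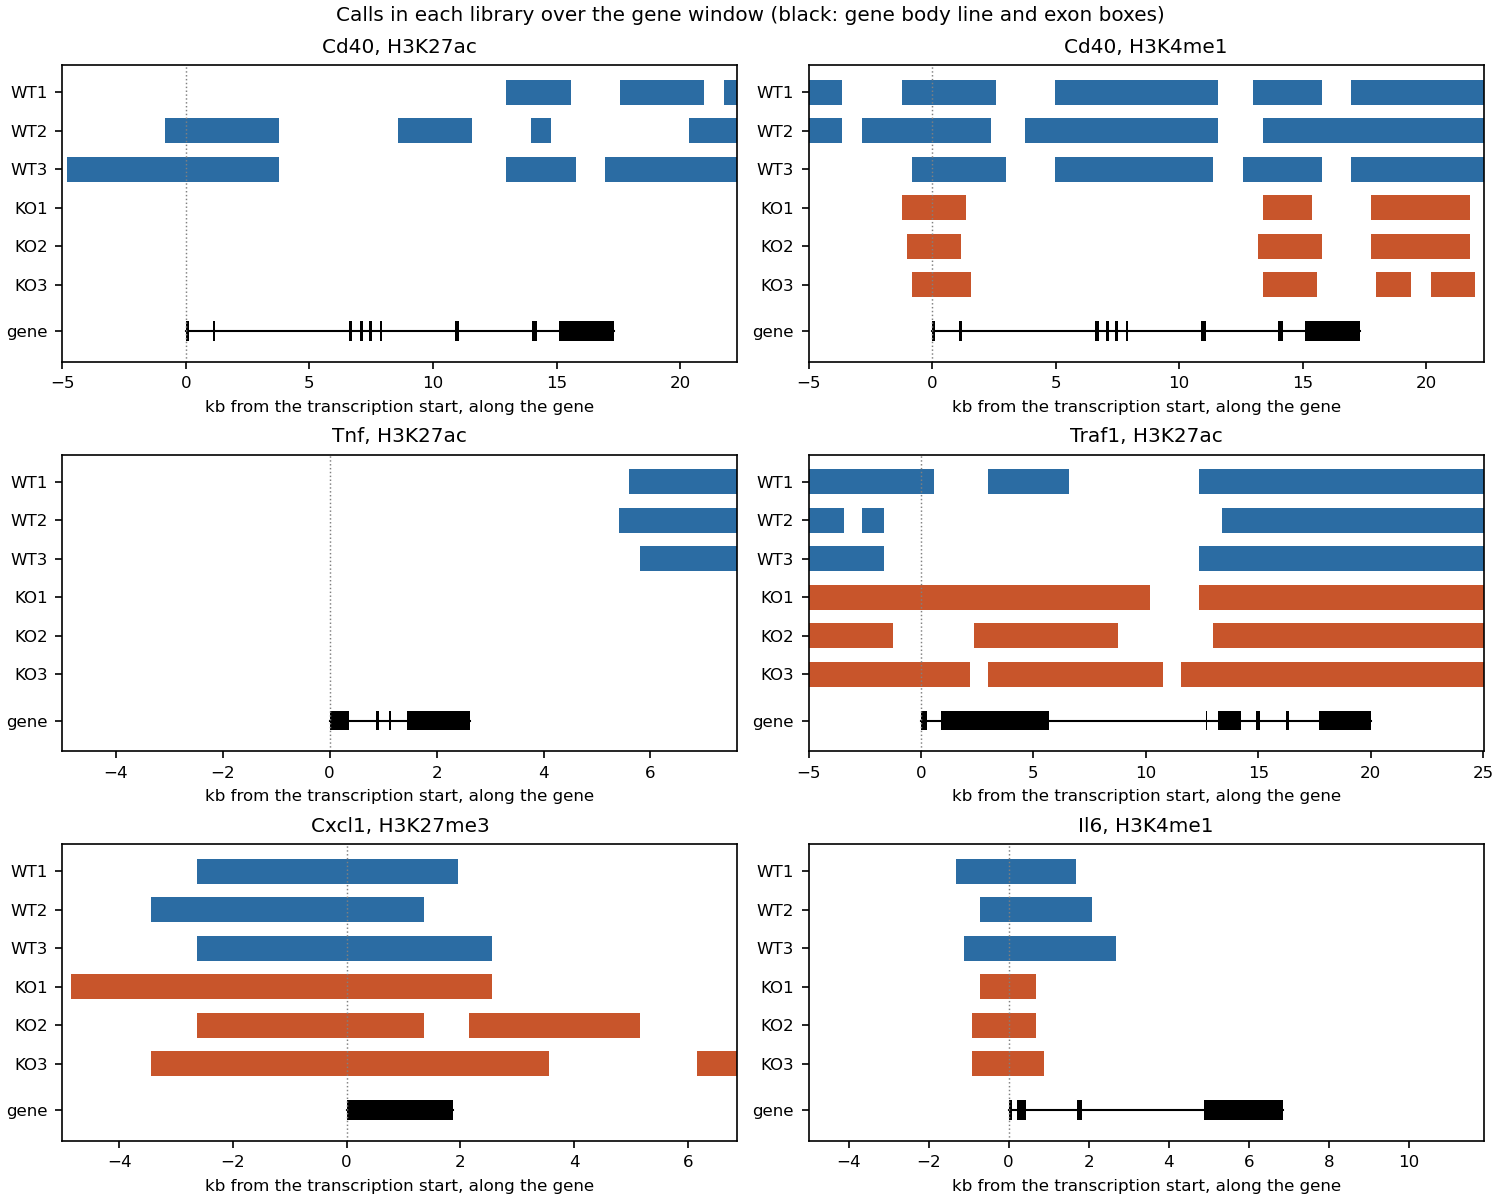
Calls of each library (blue WT, orange KO) along 6 gene windows, in kb from the annotated transcription start, with exons as black boxes. Cd40 has no H3K27ac call in KO, the H3K27ac lost from the Tnf window lies beyond the gene's 3′ end, the 5′ part of Traf1 is more covered in KO, Cxcl1 H3K27me3 is wider and Il6 H3K4me1 narrower in KO.

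Cxcl1 and Ccl2 are chemokines, the former drawing neutrophils and the latter monocytes, and both were without H3K27ac in all 6 libraries. Cxcl1 (ENSMUSG00000029380, chr5:90891241-90893115, plus strand) had an H3K4me3 peak over its start in 2 WT and 2 KO libraries, 355 and 470 bp wide in WT and 418 and 277 bp in KO. H3K27me3 lay across the start in every library and covered 4600, 4800 and 5200 bp in WT and 7400, 7000 and 7715 bp in KO. H3K4me1 covered 3400, 3200 and 3200 bp in WT and 2000, 1800 and 2800 bp in KO. The silencing mark was thus wider and the enhancer mark narrower in every KO than in every WT library. Inside the H3K4me1 calls the input held 31.5, 31.9 and 31.9 reads per kb in WT and 28.0, 28.9 and 28.2 in KO, and its part in the difference was not tested.

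The raw density of H3K27me3 at Cxcl1 was lower in KO and its ratio to input higher. The density was 37.6, 44.2 and 41.0 reads per kb of called sequence in WT and 34.5, 34.7 and 33.9 in KO, and the region's log2 difference of -0.25 ± 0.10 (SE) was not called (adjusted p = 0.263, edgeR quasi-likelihood test). ChIP reads per kb of window were 14.6, 17.9 and 17.9 in WT and 21.5, 20.5 and 22.0 in KO. Input in these calls was lower in KO too, at 16.1, 16.0 and 16.6 reads per kb against 20.2, 20.0 and 19.0 in WT. ChIP over input at the caller's scale was 1.62, 2.21 and 2.06 in WT and 2.37, 2.59 and 2.27 in KO. The groups did not overlap on this measure, but the share of all genes apart on it was not computed. The KO calls were also the wider ones, so the values are not over the same sequence.

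Ccl2 (ENSMUSG00000035385, chr11:82035571-82037453, plus strand) carried H3K27me3 and almost nothing else. It covered 0, 53 and 4200 bp in WT and 2800, 7030 and 8800 bp in KO. The groups overlapped through WT library 3, and a call lay over the Ccl2 start in no WT and 2 KO libraries. H3K9me3 was called in KO library 3 only, over 1030 bp.

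Tnf and Il6 encode the cytokines for which the pathway is best known. Tnf (ENSMUSG00000024401, chr17:35199381-35202007, minus strand) lies between Lta and Ltb, which encode lymphotoxins, and the whole 12627 bp window was under H3K27me3 in all 6 libraries. ChIP reads per kb of window were 87.3, 101 and 83.3 in WT and 84.0, 96.6 and 89.5 in KO, and the region differed by 0.04 ± 0.07 (SE) on the log2 scale (adjusted p = 0.874, edgeR quasi-likelihood test). H3K4me1 covered the window nearly as widely, over 10420 to 11820 bp in WT and 11020 to 12620 bp in KO. The gene therefore bore H3K27me3 and H3K4me1 in WT and KO at levels whose groups overlapped.

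The H3K27ac lost from the Tnf window, 2020, 2220 and 1820 bp in WT and 0 bp in KO, did not lie on Tnf. Its region was 5407 to 9006 bp downstream of the Tnf start, beyond the 3′ end of the gene, and covered the start of Ltb. Its WT density was 45.0 to 48.8 ChIP reads per kb of called sequence, below the 57.8 to 59.4 of Birc3. The H3K4me3 peak called in all 6 libraries in this window was at the same place, 5683 to 6536 bp downstream, with a strongest fold enrichment of 6.53, 3.08 and 6.31 in WT and 5.15, 4.09 and 5.02 in KO. No library had H3K4me3 or H3K27ac over the Tnf start.

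Il6 (ENSMUSG00000025746, chr5:30013114-30019981, plus strand) had H3K4me1 across its start in all 6 libraries. The mark covered 3000, 2800 and 3800 bp in WT and 1400, 1600 and 1800 bp in KO. All KO libraries were below all WT libraries, yet the density within the calls was higher in KO, 77.1, 79.4 and 71.7 reads per kb against 58.3, 57.5 and 58.2. The KO calls were shorter, so these densities are not over the same sequence. Input in these calls was 37.3, 35.7 and 36.3 reads per kb in WT and 32.9, 31.9 and 30.6 in KO, and its part in the difference was not tested. The fitted difference of 0.43 ± 0.12 (SE) on the log2 scale was not called (adjusted p = 0.0523, edgeR quasi-likelihood test). H3K27ac upstream of Il6 was called in 2 WT libraries (1087 and 1487 bp of the window) and in none of the KO libraries, and none of the KO libraries had H3K27me3 in the window, which was called upstream of Il6 in WT library 2 and at its 3′ end in WT library 1.

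By covered share the same 4 genes led H3K27ac in both genotypes. In H3K27ac Icam1 (98.8% ± 2.02 (SD, n = 3)), Tnip1 (92.3% ± 0.322), Birc3 (77.4% ± 7.40) and Traf1 (57.8% ± 13.2) led in WT, and Tnip1 (99.6% ± 0.743), Icam1 (98.8% ± 2.02), Traf1 (87.1% ± 11.4) and Birc3 (83.8% ± 3.80) in KO. Birc3 and Traf1 overlapped within each genotype, as did Icam1 and Tnip1 in KO. In H3K27me3 Tnf led in both (100% of the window), followed by Cd40 in WT (73.0% ± 1.88) and Cxcl1 in KO (62.1% ± 3.02). Tnf thus ranked above 99.0% of all genes in WT and 98.8% in KO for the silencing mark.

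A pair of wider lists showed how the rest of the pathway stood. Of 30 further NF-κB targets, H3K27ac was lost at Tnfaip2 and Il15ra (background 1.01%) and gained at none (0.132%). Tnfaip2 covered 7532, 4532 and 5000 bp in WT and 0 bp in KO, with a KO input 0.652 times WT, and Il15ra covered 1600, 2400 and 1000 bp in WT and 0 bp in KO with an input ratio of 1.03. In edgeR's quasi-likelihood test 3 of 21 with a tested H3K27ac region were higher, led by Mmp9 (log2 0.17 ± 0.03, SE) and Bcl2l1 (0.17 ± 0.02), and none lower (8.19% and 4.56% of all regions). For H3K4me1 1 of 27 was higher and 2 lower (4.0% and 1.64%), and for H3K27me3 0 of 17 were higher and 2 lower (1.7% and 1.04%). Those 2 were Tnfaip2 and Mmp9 in both marks, at -0.82 ± 0.07 and -0.64 ± 0.04 for H3K4me1, where the KO input was 0.529 and 0.832 times WT. For H3K27me3 the KO input was 0.493 and 0.685 times WT. Mmp9 lies on chromosome 2 in the 1 Mb bin just before that of Cd40. Whether it shares the low input stretch of Cd40 was not tested, so Mmp9 and Cd40 may not be separate cases.

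Of 22 genes of the pathway itself (receptors, adaptors, kinases, NF-κB subunits and their inhibitors), 21 had H3K4me3 in 3 of 3 WT and 3 of 3 KO libraries (63.5% and 63.2% of all genes). H3K27ac was lost at 1 (1.01%), Tlr4, the lipopolysaccharide receptor, over 3600, 4800 and 3800 bp in WT and 0 bp in KO. Of 21 tested H3K27ac regions 5 were higher and none lower (8.19% and 4.56% of all regions), Nfkb1 most (0.36 ± 0.02, SE) and then Nfkbie (0.27 ± 0.03), which encode p105/p50 and IκBε. For H3K4me1 1 of 21 was higher, Tab2 (0.20 ± 0.03), and 2 lower, Nfkbib most (-0.10 ± 0.02), against 4.0% and 1.64%, and none of 11 was called for H3K27me3 (2.73%). The median log2 difference of the tested H3K27ac regions was 0.11 over the 4 classical targets, 0.02 over the 21 further targets and -0.00 over the 21 pathway genes, against -0.01 over all regions.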

How the data were processed

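Histone-mark ChIP-seq of 3 IκBα-WT and 3 IκBα-KO samples was analysed for each of 5 marks. Reads had been trimmed (Trim Galore 0.6.6), aligned to GRCm38 and filtered with SAMtools 1.15, per the study's methods and the submitters' processing notes, with Bowtie2 2.4.4 as the aligner except for H3K27ac, whose aligner is not given in the sources used here, as the settings for H3K9me3 are not. The authors called each sample against 1 input of its genotype, at an FDR under 0.05, and deposited 1 list per sample. For 4 marks the deposited lists (epic2, bins of 200 bp) hold ChIP and input read counts per call, a p-value, a log2 fold change over scaled input and a score. For H3K4me3 the deposited lists (MACS2 2.2.7.1) hold a fold enrichment (a ratio to background), -log10 p- and q-values and a score, but no counts, so depth behind those peaks is unknown.

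Windows were gene bodies plus 5 kb on each side. A call's reads were spread evenly over it. A value of 0 means no call, not no reads, so that levels below the callers' thresholds were not seen. Calls of a mark were merged over its 6 libraries, and regions called in all 6 were tested with edgeR 4.0.16 (R 4.3.3; quasi-likelihood test, Benjamini-Hochberg adjustment over all regions, covered length as offset, TMM), with DESeq2 1.42.0 as an alternative. For each gene the region with the most overlap was used. In simulated counts of the H3K27ac regions (24039) the fit recovered 77% of changes of 0.5 and 100% of changes of 1 on the log2 scale, and for H3K27me3 (18809) 78% and 100%. For H3K4me1 (44625) it recovered 71% and 100%, and for H3K9me3 (27342) only 33% and 91%. The simulation kept the called lengths of each library, so it cannot show how density depends on the length of a call. Covered lengths were compared by an exact two-sided permutation test over samples. All 10 genes are named, with Nfkbia, and from the wider lists those lost or gained and up to 2 called genes per mark with the largest change. The genes and lists were chosen with earlier results of these data known. Samples of a genotype were taken as replicates by their labels, and p-values measure the spread between these samples. Alternatives were other windows, thresholds, scalings, filters, input corrections and each library left out.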

Additional observations from a re-analysis of the deposited data

How the results depend on the processing

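Of the values per gene, 512 of covered share, 260 of fitted log2 difference and 151 of log2 read ratio kept their direction and call or moved by less than 1 SD over the alternatives, and 37 and 15 of covered share and read ratio moved by more. The 512 include windows with no call in any library, which stay at 0 wherever an alternative only removes calls or libraries. Without flanks (gene body plus 0 bp) the groups were apart for 1 gene in H3K4me3 and 0 in H3K9me3, and the genes called in every library of only 1 genotype numbered 1 in H3K27ac and 0 in H3K9me3. With 10 kb flanks that number was 1 in H3K27ac, and 1 gene was apart in H3K27me3. Over the promoter only (5000 bp before to 100 bp after the start) 0 genes were apart in H3K27ac, H3K4me1 and H3K27me3, 0 lost H3K27ac, and the covered share of Traf1 in H3K4me1 was lower in KO, by -1.12 percentage points. With the same number of top-ranked calls in every list, H3K9me3 separated 0 genes and was lost at 0, where Cd40 had been. Per kb of called sequence the log2 read ratio turned for H3K4me1 at Cxcl1 (0.11), Traf1 (-0.029) and Il6 (0.39) and for H3K27me3 at Cxcl1 (-0.25). With input subtracted at the caller's scale, an alternative chosen after seeing the data, the H3K4me1 ratio at Il6 was 0.21. The planned subtraction, scaled to totals over calls, makes the difference 0 on average and gave no usable value.

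In the region tests a scaling by raw reads left 1 gene called for H3K27ac, since Icam1 was then 0.03 (adjusted p = 0.334, edgeR quasi-likelihood test), and regions of like length with no offset gave 1 for H3K27me3, Icam1 at 0.21, where 35.1% of all regions were called, and for H3K4me1 called Icam1 lower (-0.05) and Tnip1 higher (0.11), where 43.4% were. Il6 in H3K4me1 passed the threshold under the raw scaling and with at least 100 reads in every library, and had no adjusted p under DESeq2. Leaving out 1 library at a time, the genes apart numbered 0 to 2 for H3K4me3, 4 to 5 for H3K27ac, 4 to 6 for H3K4me1, 3 to 5 for H3K27me3 and 1 to 1 for H3K9me3. The genes called in 1 genotype only numbered 2 to 3 for H3K27ac and 0 to 1 for H3K27me3, and the called regions 1 to 2 for H3K4me1. The cause of these changes was not tested. With the replicate number as a block the called regions numbered 2 for H3K27ac, 2 for H3K4me1, 0 for H3K27me3 and 0 for H3K9me3, as without it, and same-numbered samples did not deviate together (correlations from -0.02 to 0.03), so the numbers were not taken as pairs.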
